A study of Bos taurus with 48 samples.

Results

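The subjects are 3 genes of eosinophil and type 2 immunity, IL5RA (ENSBTAG00000000273), CCL24 (ENSBTAG00000026275) and CCL22 (ENSBTAG00000017718), followed in blood leukocytes of beef calves before and after weaning at housing. They were chosen by their Ensembl gene identifiers as 3 of the 25669 genes in the count table, of which 18206 had at least 1 read. All 3 passed the filter of at least 10 reads over the 48 libraries. IL5RA had 2268 reads in total, CCL24 had 76 and CCL22 had 95.

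The calves were intact male, single-suckled Simmental beef calves (labelled by breed as Continental), all vaccinated against bovine respiratory syncytial virus and infectious bovine rhinotracheitis virus in the weeks before housing. On d 0 all were moved indoors. The 6 control calves were penned with their dams, whereas the 6 weaned calves were abruptly separated from the dam and penned with other weaned calves, so weaning came together with social regrouping and pen mates were shared. Blood was taken from the same 12 calves on d 0 (before housing), 1, 2 and 7, giving 8 groups of 6 libraries, and on d 0 neither group of calves had yet been treated. RNA came from total leukocytes after lysis of red cells, a mixture of neutrophils, lymphocytes, monocytes and the scarcer eosinophils and basophils.

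IL5RA encodes the alpha chain of the interleukin 5 receptor, the part that binds the cytokine, and pairs with the common beta chain CSF2RB to signal through JAK2 and STAT5. It is carried chiefly by eosinophils and basophils, and interleukin 5 drives the maturation, release and survival of eosinophils. CCL24 (eotaxin-2) and CCL22 (macrophage-derived chemokine) are ligands at the other end of type 2 recruitment: CCL24 attracts eosinophils through the receptor CCR3, and CCL22, made largely by dendritic cells and macrophages, attracts T helper 2 and regulatory T cells through CCR4. In a bulk leukocyte sample, fewer cells of a type and less RNA per cell cannot be told apart. In the RefSeq gene order (assembly ARS-UCD2.0, used here for neighbours only because the counts were made on another build) IL5RA lies between TRNT1 and CNTN4, CCL24 between CCL26 and RHBDD2, and CCL22 between PLLP and CX3CL1. None of the 3 overlaps another gene there.

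The libraries held between 1662995 and 4256011 counted reads, with a median of 3600161. Levels are given as CPM, reads scaled to a common library size after adjustment by the trimmed mean of M-values (TMM). They are not corrected for gene length, so levels are compared between samples and not between genes. At these depths 3 reads, taken as the floor of detection in a library, corresponded to 0.705 to 1.80 CPM. IL5RA exceeded 3 reads in 47 of 48 libraries, CCL24 in 6 and CCL22 in 9, so the values of the 2 chemokines rest on a few reads each. The intervals given for them cover counting error only. Leukocyte identity could be checked only through the few markers whose symbols could be matched. TRAT1 of T cells and KLRD1 and KLRK1 of natural killer cells had reads in 48 of 48 libraries. Of the red cell genes, HBB also had reads in all 48 (1597 in total). ALAS2 (532 reads) had none in 1 library and SLC4A1 had none in 38, so some red cell RNA was present.

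Some libraries were at odds with the calf named in their label. Over 18 genes that were plainly on or off in different calves, 37 libraries matched the other libraries of their calf at every gene and 6 differed at 1. The control library of calf 1755 on d 2 differed at 6 genes, the weaned library of calf 1758 on d 0 at 5 and the control library of calf 1763 on d 0 at 2. The d 7 libraries of weaned calves 1758 and 1770 differed at 4 and 6 genes, and each resembled the other calf most. The control library of calf 1763 on d 0 matched calf 1789 at all 18 genes. That of control calf 1755 on d 2 shared a median of 16 genes with weaned calf 1769 and 12 with its own calf. The d 1 and d 2 libraries of weaned calf 1758, which held the highest weaned IL5RA levels, each differed from their calf at 1 gene, and shared a median of 14 genes with the other libraries of calf 1758 (of which 2 are at odds) and 15.5 with those of control calf 1763. Results that call on the first 3 libraries or on calf 1758 are given below also without them where they bear on a value described. From here on, the libraries at odds with their calf are these first 3 only. The d 7 libraries of calves 1758 and 1770 are not counted among them.

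IL5RA had reads in every library, from 1 to 260, and its level ranged from 0.320 to 62.2 CPM with a median of 8.79. In control calves the level was 16.4 ± 16.1 CPM (SD, n = 6) on d 0, with a lowest value of 4.06, a median of 10.3 and a highest of 46.7. On d 1 it was 13.7 ± 10.8 CPM (SD, n = 6), between 3.96 and 32.5 with a median of 11.6. Both maxima came from calf 1755. On d 2 the control level was 13.3 ± 15.2 CPM (SD, n = 6), between 1.62 and 42.0 with a median of 8.67, and on d 7 it was 13.3 ± 13.8 CPM (SD, n = 6), between 2.86 and 39.2 with a median of 7.96. The control means thus stayed close together across days, while the calf with the highest level was 1755 on d 0 and 1, 1763 on d 2 and 1802 on d 7.

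In weaned calves IL5RA stood at 7.27 ± 3.84 CPM (SD, n = 6) on d 0, with a lowest value of 2.68, a median of 6.80 and a highest of 13.4. On d 1 it was 15.2 ± 9.35 CPM (SD, n = 6), between 8.14 and 32.8 with a median of 12.8. The lowest weaned value on d 1 was above 4 of the 6 weaned values of d 0. On d 2 the level was 17.3 ± 22.0 CPM (SD, n = 6), between 6.08 and 62.2 with a median of 8.79, and a single library, that of calf 1758, held 64.8% of the group's 401 reads. On d 7 it was 8.06 ± 5.88 CPM (SD, n = 6), between 0.320 and 14.3 with a median of 8.57. The lowest of these, from calf 1809, was 1 read.

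**Figure D1:**
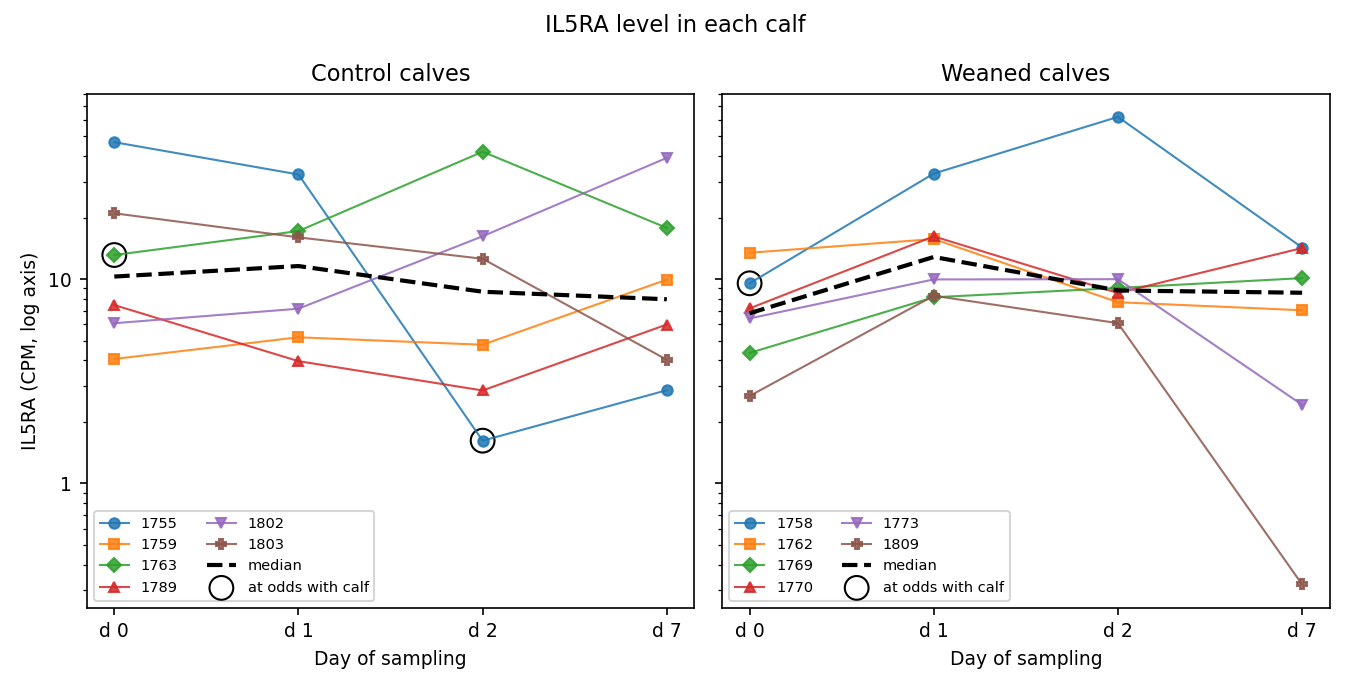
IL5RA level in CPM (log axis) on d 0, 1, 2 and 7 for each of 6 control calves (left) and 6 weaned calves (right), with lines joining the libraries of a calf, the group median as a dashed line, and rings on the 3 libraries at odds with their calf. Every weaned calf lay higher on d 1 than on d 0, control calves went both ways, and the spread between calves exceeded any shift of the medians.

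Ordered by mean level, the 8 groups ran from weaned d 2, control d 0, weaned d 1, control d 1, control d 2 and control d 7 down to weaned d 7 and weaned d 0. Between neighbours in that order, 7 exact two-sided permutation tests on log2(CPM + 1) gave p from 0.468 to 0.970. The ordering itself sets neighbours close together, so these tests cannot tell whether groups further apart differ. Within a calf the highest of the 4 levels exceeded the lowest by 2.23-fold to 28.9-fold, with a median of 3.66-fold over the 12 calves. The 2 widest ranges belonged to control calf 1755 (28.9-fold, from 46.7 CPM on d 0 to 1.62 CPM in the d 2 library that is at odds with the calf) and to weaned calf 1809 (25.9-fold, from 8.29 CPM on d 1 to 0.320 CPM on d 7). After removal of the group means, 44.3% of the variation of IL5RA on the log2 scale lay between calves, against a median of 42.9% over the 11071 genes with at least 480 reads.

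IL5RA, the interleukin 5 receptor chain, was higher on d 1 than on d 0 in 6 of 6 weaned calves, by 1.17-fold to 3.44-fold, with a fitted log2 change of 1.07 (SE 0.40, adjusted p = 0.423, edgeR quasi-likelihood test). The exact test of sign changes over the 6 calves gave p = 0.03125, the smallest that 6 calves allow. Control calves over the same day were higher in 3 and lower in 3, with a log2 change of -0.27 (SE 0.60, adjusted p = 0.999 by edgeR). The question whether weaned and control calves moved apart is that of the treatment by day interaction, which for IL5RA on d 1 was 1.23 on the log2 scale (SE 0.32, adjusted p = 0.200 by edgeR, with calf as a block). The corresponding exact permutation p over all assignments of the 12 calves was 0.00649. Fitted without calf as a block, the interaction was 1.36 (SE 0.77, adjusted p = 0.580 by edgeR).

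None of these differences was called, a call being an adjusted p under 0.05 together with a change of at least 2-fold. Over all 13 comparisons made, no member was called in any, and 11 of the 39 tests of members had an unadjusted p under 0.05 by the edgeR quasi-likelihood test. Of all genes tested, 0% were called in 12 of the 13 comparisons and 3.73% in control calves on d 7 against d 0. At an unadjusted p under 0.05 stood 2 of the 3 members in weaned calves on d 1 against d 0, where 10.4% of all genes tested did, and 1 of the 3 in the d 1 interaction, where 22.3% did. No member did so in weaned against control calves on d 2 (3.37% of all genes), in control calves on d 1 (0.768%) or in the d 2 interaction (7.2%). DESeq2 called no member either. The older exact test of edgeR, with a single common dispersion for all genes, called IL5RA for weaned d 1 against d 0 (adjusted p = 0.00954). That test called from 0 to 865 genes over the comparisons in which it was run. Between treatments on d 0, before any treatment, it called 68 of 13926 genes.

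Without the d 0 library of calf 1758, which is at odds with its calf, the remaining weaned calves were higher on d 1 in 5 of 5. The exact p over these 5 calves was 0.0625, again the smallest possible. The fit without that library gave a log2 change of 1.17 (SE 0.44, adjusted p = 0.621 by edgeR), but it kept the d 1 library of calf 1758. The d 1 interaction without the libraries at odds was 1.14 (SE 0.30, adjusted p = 0.483 by edgeR), with an exact permutation p of 0.0159 over the 10 calves left. Leaving out calf 1758 altogether gave a change of 0.78 (SE 0.38, adjusted p = 0.694 by edgeR) for weaned d 1 against d 0 and an interaction of 1.03 (SE 0.32, adjusted p = 0.327 by edgeR).

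On d 2 the weaned change from d 0 was 1.25 on the log2 scale (SE 0.58, p = 0.0457, adjusted p = 0.944 by edgeR; as background, 2.11% of all genes stood at an unadjusted p under 0.05), with 5 calves higher and 1 lower (exact p = 0.125). It rested on calf 1758, whose 260 reads were the most of any library, and without that calf the change was 0.29 (SE 0.35). Without the d 0 library of calf 1758 alone it was 1.35 (SE 0.63). By d 7 weaned calves were higher in 3 and lower in 3, with a log2 change of 0.15 (SE 0.56, adjusted p = 0.954 by edgeR). In control calves the changes on d 2 and d 7 were -0.23 (SE 0.66) and -0.27 (SE 0.58). Both changed direction without calf 1755, to 0.67 (SE 0.58) and 0.58 (SE 0.53), and the d 7 change was 0.02 (SE 0.60) without calf 1803. Without the libraries at odds they were -0.0534 (SE 0.68) and -0.32 (SE 0.62).

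Set against control calves on the same day, weaned calves had the lower IL5RA on d 0, before any treatment, by a fitted log2 difference of -1.18 (SE 0.52, p = 0.0382, adjusted p = 0.624 by edgeR), with overlapping groups and an exact permutation p of 0.210. At an unadjusted p under 0.05 stood 6.23% of all genes tested. The difference was 0.15 (SE 0.49) on d 1, 0.30 (SE 0.71) on d 2 and -0.73 (SE 0.64) on d 7, and the groups overlapped on each day. The d 0 difference was -0.53 (SE 0.43) without control calf 1755 and -1.34 (SE 0.61, exact permutation p = 0.270) without the libraries at odds. Without weaned calf 1758 the d 1 difference was -0.23 (SE 0.48) and the d 2 difference -0.75 (SE 0.61), and without the control library at odds the d 2 difference was 0.0993 (SE 0.69). Without control calf 1802, which had the highest level on d 7, the d 7 difference was -0.0295 (SE 0.61).

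The libraries were sequenced on 8 flowcells, and 6 of the 12 calves had all 4 libraries on 1 flowcell. Median IL5RA levels ran from 6.08 to 32.5 CPM between flowcells, the highest being a flowcell with 3 libraries, all from control calf 1755. With flowcell as a block the weaned minus control difference was -0.30 (SE 0.46) on d 0, 1.00 (SE 0.58) on d 1, -0.30 (SE 0.57) on d 2 and -0.02 (SE 0.61) on d 7, whereas the weaned d 1 minus d 0 change was 0.94 (SE 0.25, adjusted p = 0.277 by edgeR). A library alone on its flowcell carries no weight in that fit. For the differences between treatments, which change with that block, treatment, calf and flowcell cannot be fully told apart.

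**Figure D2:**
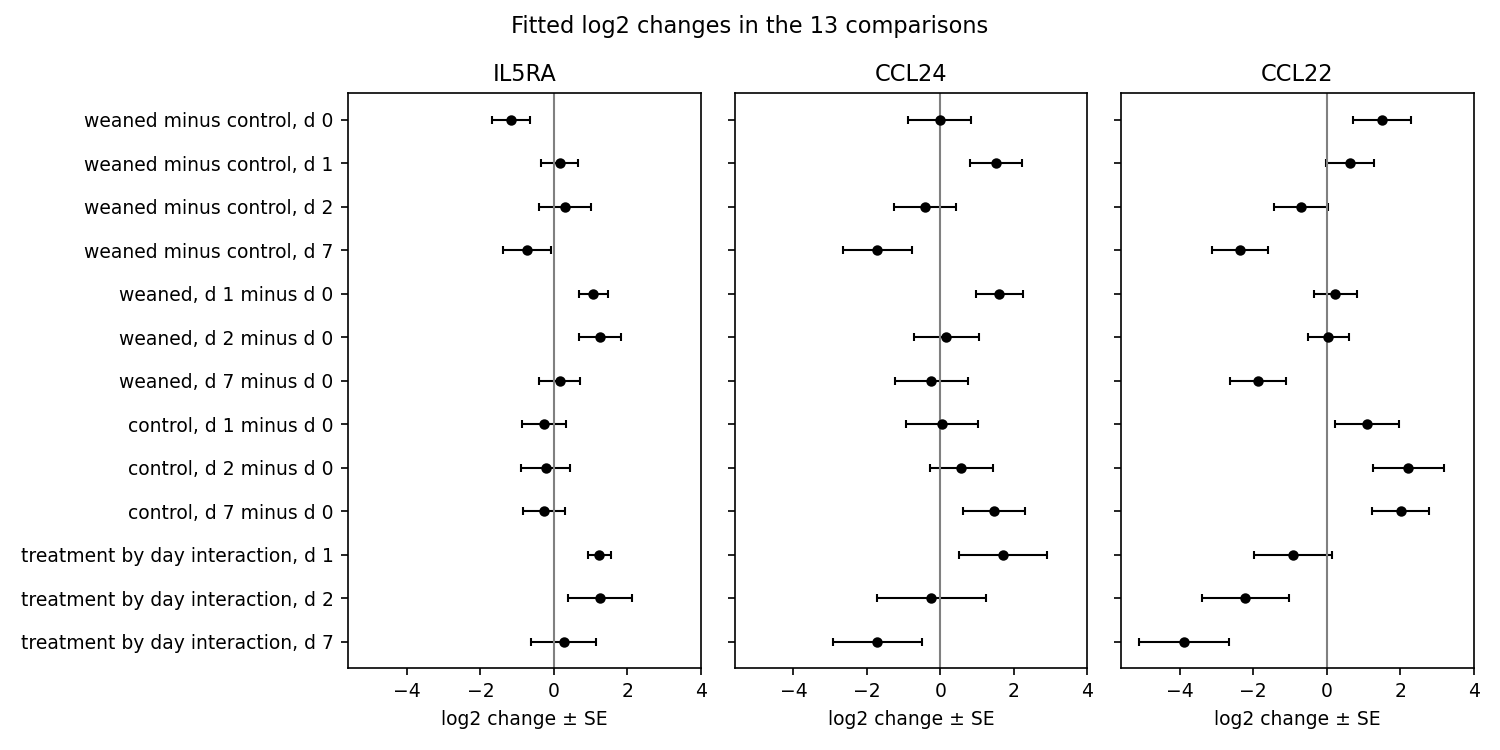
Fitted log2 changes (points) with their standard errors (bars) for IL5RA, CCL24 and CCL22 in the 13 comparisons, 4 between treatments, 6 within a treatment against d 0, and 3 interactions. The IL5RA interaction on d 1 has the narrowest error bar of the interactions (SE 0.32), and the lowest point is the CCL22 interaction on d 7 at -3.89.

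CCL24 had 0 to 7 reads in a library and no reads in 17 of 48. In control calves the reads per library on d 0 were 0, 1, 2, 2, 1 and 0 (calves 1755, 1759, 1763, 1789, 1802 and 1803 in that order), and on d 1 they were 0, 0, 4, 1, 1 and 0. On d 2 the same calves had 0, 1, 3, 0, 4 and 1 reads and on d 7 they had 0, 2, 3, 7, 3 and 0. Calf 1755 thus had no CCL24 read on any day. In weaned calves the reads on d 0 were 2, 2, 0, 0, 0 and 2 (calves 1758, 1762, 1769, 1770, 1773 and 1809), and on d 1 they were 3, 3, 4, 5, 3 and 4. On d 2 they were 0, 0, 2, 2, 2 and 1 and on d 7 they were 1, 3, 0, 1, 0 and 0. The weaned d 1 group was the only one of the 8 in which every library had a read, and all of its libraries had at least 3.

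Summed over 6 libraries, weaned calves had 22 CCL24 reads on d 1 against 6 on d 0, which is 3.36 times as many relative to depth (95% exact interval 1.32 to 10.1, counting error only). The level was higher in 6 of 6 calves, going from 0.311 ± 0.341 to 0.944 ± 0.202 CPM (SD, n = 6), with a fitted log2 change of 1.60 (SE 0.64, p = 0.0241, adjusted p = 0.423, edgeR quasi-likelihood test) and an exact p of 0.03125 over sign changes. Without the d 0 library of calf 1758 the ratio was 4.26 (95% exact interval 1.45 to 17.0), still counting the d 1 reads of that calf. Of the other weaned calves 5 of 5 were higher, with an exact p of 0.0625 over sign changes. Control calves had 6 reads on both days, a ratio of 1.04 (95% exact interval 0.277 to 3.87).

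Weaned calves on d 1 also had more CCL24 reads than control calves on d 1, 22 against 6 or 3.17 times as many relative to depth (95% exact interval 1.24 to 9.54), with a fitted log2 difference of 1.52 (SE 0.71, p = 0.0487, adjusted p = 0.959 by edgeR) and an exact permutation p of 0.0195. At an unadjusted p under 0.05 stood 3.01% of all genes tested. The groups overlapped through control calf 1763, whose 4 reads were 1.40 CPM, above the highest weaned value of 1.24 CPM. The interaction on d 1 was 1.71 (SE 1.20, adjusted p = 0.376 by edgeR), with an exact permutation p of 0.0281. With flowcell as a block the d 1 difference between treatments was 1.07 (SE 0.88).

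On d 7 the order of the treatments was the opposite, with 5 CCL24 reads in weaned calves and 15 in control calves, a ratio of 0.282 (95% exact interval 0.0803 to 0.817). The fitted log2 difference was -1.71 (SE 0.93, p = 0.0820, adjusted p = 0.239 by edgeR) and the exact permutation p was 0.154. Control calf 1789 alone held 46.7% of the control reads on that day. Control calves had 2.91 times as many reads relative to depth on d 7 as on d 0 (95% exact interval 1.07 to 9.14), with a fitted log2 change of 1.46 (SE 0.84, adjusted p = 0.193 by edgeR), 4 calves higher, 0 lower and 2 equal at 0 reads. Without the d 0 library of calf 1763 that ratio was 3.74 (95% exact interval 1.19 to 15.5). Neighbours in the order of the 8 CCL24 group means, which that order sets close together, had exact permutation p from 0.500 to 1.

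CCL22 had 0 to 8 reads in a library and no reads in 10 of 48. In control calves the reads on d 0 were 0, 0, 1, 0, 0 and 3, and on d 1 they were 1, 1, 1, 1, 4 and 1 (calves in the order above). On d 2 the control calves had 1, 5, 8, 5, 0 and 1 reads and on d 7 they had 4, 1, 5, 1, 2 and 3. The control sums were therefore 4 reads on d 0, 9 on d 1, 20 on d 2 and 16 on d 7. In weaned calves the reads on d 0 were 2, 1, 3, 2, 1 and 4, and on d 1 they were 7, 2, 3, 0, 2 and 3. On d 2 they were 2, 2, 1, 3, 4 and 1 and on d 7 they were 0, 2, 1, 0, 0 and 0, giving sums of 13, 17, 13 and 3 reads.

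**Figure D3:**
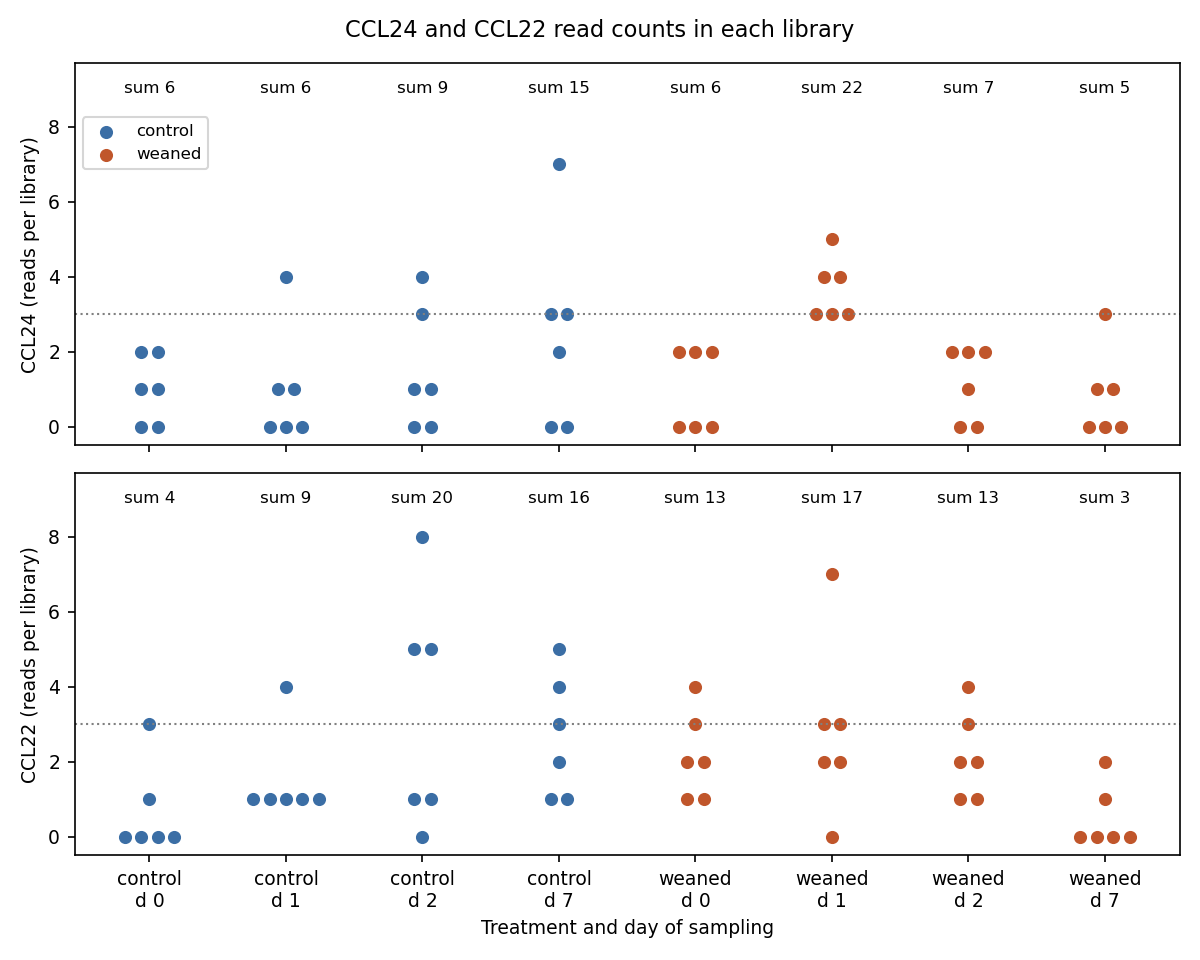
Reads of CCL24 (top) and CCL22 (bottom) in each library, 1 point per calf, for the 8 groups of 6 calves, with the sum of each group written above and a dotted line at the floor of 3 reads. All 6 weaned calves had at least 3 CCL24 reads on d 1, and CCL22 was at 0 in 4 of 6 weaned calves on d 7 and in 4 of 6 control calves on d 0.

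The widest difference of CCL22 between treatments was on d 7, when weaned calves had 3 reads and control calves 16. The ratio relative to depth was 0.159 (95% exact interval 0.0297 to 0.555), the levels were 0.143 ± 0.25 and 0.853 ± 0.410 CPM (SD, n = 6 each), and the fitted log2 difference was -2.35 (SE 0.76, p = 0.00639, adjusted p = 0.158 by edgeR). The exact permutation p was 0.00649. The groups overlapped, since weaned calf 1762 had 2 reads and control calves 1759 and 1789 had 1 each. At an unadjusted p under 0.05 stood 25.5% of all genes tested in this comparison. With flowcell as a block the difference was -2.26 (SE 0.99, adjusted p = 0.177 by edgeR), and edgeR's exact test with a common dispersion called it with an adjusted p of 0.0400.

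On d 0 the difference had the other direction, 13 reads in weaned and 4 in control calves, with a ratio of 3.17 (95% exact interval 0.978 to 13.3), a fitted log2 difference of 1.49 (SE 0.79, p = 0.0756, adjusted p = 0.624 by edgeR) and an exact permutation p of 0.0390. Without the d 0 libraries of calves 1758 and 1763 the exact permutation p was 0.0714. On d 1 there were 17 reads in weaned and 9 in control calves (log2 difference 0.63, SE 0.66), and on d 2 there were 13 and 20 (log2 difference -0.71, SE 0.74).

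In weaned calves CCL22 was lower on d 7 than on d 0 in 5 of 6 calves, with a log2 change of -1.87 (SE 0.76, p = 0.0269, adjusted p = 0.920 by edgeR, exact p = 0.0625), where 2.65% of all genes stood at an unadjusted p under 0.05. In control calves it was higher on d 7 in 5 of 6, with a log2 change of 2.01 (SE 0.77, p = 0.0173, adjusted p = 0.0706 by edgeR, exact p = 0.0625), in a comparison in which 40.1% of all genes stood at an unadjusted p under 0.05. This control change was called when calf 1803, which held 3 of the 4 reads of d 0, was left out (log2 change 3.28, SE 0.93, adjusted p = 0.0226 by edgeR). In that setting 1086 genes were called, against 516 with all calves and 0 without calf 1755, 1759 or 1763. Without the d 0 libraries at odds the weaned change was -1.87 (SE 0.82) and the control change 2.17 (SE 0.85, adjusted p = 0.118 by edgeR). The control change on d 2 was 2.22 (SE 0.96, p = 0.0331, adjusted p = 0.625 by edgeR, exact p = 0.188), and there 5.09% of all genes stood at an unadjusted p under 0.05. It ran from 1.60 without calf 1759 to 3.71 without calf 1803, and was 2.60 (SE 1.07) without the libraries at odds.

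The CCL22 interaction on d 7 was -3.89 on the log2 scale (SE 1.23, p = 0.00509, adjusted p = 0.0810 by edgeR, with calf as a block), and the exact permutation p was 0.00433. An unadjusted p under 0.05 was reached by 35.8% of all genes tested. Without calves 1758 and 1763, whose d 0 libraries are at odds with their calf, the interaction was -3.66 (SE 1.38, adjusted p = 0.217 by edgeR, exact permutation p = 0.0159). That fit kept the d 7 library of calf 1770. With the d 7 libraries of calves 1758 and 1770 exchanged the interaction was -3.88 (SE 1.23, adjusted p = 0.0950 by edgeR). Both of those libraries had 0 CCL22 reads, so the exchange was no test of the CCL22 value. The weaned and control comparisons share the same d 0 and d 7 libraries, so these values are not independent of each other. The interactions on d 1 and d 2 were -0.91 (SE 1.06) and -2.21 (SE 1.18). The order of the CCL22 group means ran from control d 2 down to weaned d 7. Its neighbours, which that order sets close together, had exact permutation p from 0.281 to 0.969.

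The other genes of these pathways could be followed only in part, since a gene was identified only where the study paired its bovine identifier with a symbol. Of 29 listed genes of interleukin 5 receptor signalling 1 was identified, the receptor-associated kinase JAK2. Of 13 listed genes of the CCR3 and CCR4 chemokine axis 1 was identified, ACKR2, a decoy receptor that takes up inflammatory chemokines, and of 23 listed type 2 cytokines and receptors 0 were. The ligand IL5, the partner CSF2RB and the receptors CCR3 and CCR4 are not analysed here. JAK2 was not called in any comparison. Its log2 change in weaned calves on d 1 was 0.62 (SE 0.26, adjusted p = 0.423 by edgeR) and its d 1 interaction was 0.87 (SE 0.34, adjusted p = 0.200 by edgeR). In control calves on d 7 it had a log2 change of -0.92 (SE 0.27, adjusted p = 0.0330 by edgeR), which is under 2-fold. ACKR2, with 111 reads in all, was not called in any comparison.

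The 2 identified eosinophil markers of 12 listed, ALOX15 and GATA1, were followed beside IL5RA. ALOX15 is a lipoxygenase abundant in eosinophils, and GATA1 is the transcription factor that commits progenitors to the eosinophil, basophil, erythroid and platelet lineages. Over the 48 libraries the level of IL5RA correlated with both, with Pearson r = 0.60 and Spearman rho = 0.71 for ALOX15 and r = 0.61 and rho = 0.61 for GATA1 on log2(CPM + 1), as a description only, since libraries of a calf are repeated samples and all values share their library's depth. With each calf's mean removed r was 0.63 and 0.52. Without the 3 libraries at odds with their calf r was 0.71 for ALOX15 and 0.60 for GATA1. The control library of calf 1755 on d 2 had 2 ALOX15 reads (0.540 CPM), whereas the other 47 libraries had at least 74.1 CPM, and the same library had 6 IL5RA reads.

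Neither eosinophil marker was called on d 1. In weaned calves the log2 change from d 0 to d 1 was 0.05 (SE 0.22) for ALOX15 and -0.08 (SE 0.34) for GATA1, beside the 1.07 of IL5RA, and the summed level of the 2 markers ran from 107 to 285 CPM on d 0 and from 147 to 349 CPM on d 1. On d 7 the difference between weaned and control calves was -1.21 (SE 0.26, adjusted p = 0.158 by edgeR) for ALOX15 and -1.19 (SE 0.35, adjusted p = 0.158 by edgeR) for GATA1, beside -0.73 for IL5RA (-0.0295 without calf 1802), -1.71 for CCL24 and -2.35 for CCL22. The summed level on that day ran from 102 to 231 CPM in weaned and from 170 to 619 CPM in control calves. GATA1 is also a factor of the erythroid lineage. In the same comparison the erythroid gene HBB differed by -1.18 (SE 0.46, adjusted p = 0.161 by edgeR). ALAS2 differed by -1.08 (SE 0.62, adjusted p = 0.259 by edgeR). The basophil and mast cell markers given below were higher in weaned calves. The part of red cell RNA in the GATA1 values was not tested. GATA1 was called as higher in control calves on d 7 against d 0, from 27.6 ± 9.71 to 58.4 ± 43.1 CPM (SD, n = 6), with a log2 change of 1.10 (SE 0.35, adjusted p = 0.0427 by edgeR). In that comparison edgeR called 0 genes without the d 0 library of calf 1763 (4139 of 13711 at an unadjusted p under 0.05), and 0 without calf 1755, 1759 or 1763, so the GATA1 call was lost there. The part of the number of eosinophils in the levels of IL5RA was not tested.

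Basophils and mast cells also carry IL5RA, and 4 of 6 listed markers were identified: FCER1A and MS4A2, chains of the high-affinity IgE receptor, the mast cell protease CPA3 and the stem cell factor receptor KIT. Their summed level in weaned calves ran from 22.0 to 61.9 CPM on d 0, from 35.4 to 82.0 CPM on d 1 and from 18.9 to 108 CPM on d 7, and in control calves from 21.8 to 62.1 CPM on d 0, from 10.9 to 52.1 CPM on d 1 and from 18.0 to 32.7 CPM on d 7. In weaned calves on d 1 none of the 4 was called, with log2 changes of 0.61 (SE 0.28) for FCER1A and 0.81 (SE 0.37) for MS4A2, both with an adjusted p of 0.423 by edgeR. In weaned against control calves on d 7 all 4 were higher, by 0.81 (SE 0.34) for FCER1A, 1.49 (SE 0.59) for MS4A2, 1.28 (SE 0.57) for CPA3 and 0.99 (SE 0.36) for KIT, with adjusted p from 0.158 to 0.180 by edgeR. The d 1 interaction of FCER1A was 1.03 (SE 0.43, adjusted p = 0.201 by edgeR). KIT was called as lower in control calves on d 7 against d 0, with a log2 change of -1.02 (SE 0.34, adjusted p = 0.0483 by edgeR), a call lost like that of GATA1. The correlation of IL5RA with the 4 markers over 48 libraries was r = 0.13 for FCER1A, 0.35 for MS4A2, 0.36 for CPA3 and 0.19 for KIT. Their part in the d 1 values of IL5RA was not tested.

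CCL22 and CCL19 are both chemokines of mature dendritic cells, and CD80 is a co-stimulatory molecule of the same cells and of activated monocytes and B cells. CCL19 and CD80 were the 2 identified of 12 listed markers. CCL19, with 117 reads in all, had a log2 difference between weaned and control calves on d 7 of -1.84 (SE 0.73, adjusted p = 0.163 by edgeR) and an interaction on d 7 of -2.34 (SE 0.88, adjusted p = 0.0914 by edgeR), beside -2.35 and -3.89 for CCL22. CD80 had an interaction of 0.95 (SE 0.35, adjusted p = 0.0909 by edgeR) on d 7 and of 1.04 (SE 0.33, adjusted p = 0.200 by edgeR) on d 1. Neither gene was called in any comparison.

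In control calves the T cell adaptor TRAT1 was called as lower on d 7 than on d 0, with a log2 change of -1.04 (SE 0.31, adjusted p = 0.0338 by edgeR), and so was the natural killer cell receptor KLRD1, with a change of -1.73 (SE 0.42, adjusted p = 0.0226 by edgeR). Both calls were lost without the d 0 library of calf 1763. In weaned calves the same changes were 0.33 (SE 0.42) and 0.32 (SE 0.50). KLRK1, another natural killer cell receptor, had a change of -0.86 (SE 0.35, adjusted p = 0.0845 by edgeR) in control calves on d 7. On d 1 KLRK1 had a weaned change of 1.07 (SE 0.40, adjusted p = 0.423 by edgeR) and an interaction of 1.29 (SE 0.40, adjusted p = 0.200 by edgeR), beside 1.07 and 1.23 for IL5RA, and its part in the IL5RA values was not tested. In control calves on d 7 the haemoglobin gene HBB had a change of 1.20 (SE 0.42, adjusted p = 0.0555 by edgeR). Of the other erythroid genes, ALAS2 was not called in any comparison and SLC4A1 had 27 reads in all. The platelet chemokine PPBP was not called in any comparison either. No gene was identified of the listed monocyte, neutrophil or B cell markers. These shifts stand beside the CCL22 change of 2.01 in the same control libraries, and their part in it was not tested.

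Over the 48 libraries and 11070 genes with at least 480 reads, the 5 genes whose log2 level was most like that of IL5RA had Pearson r from 0.78 to 0.88, against a median r of -0.01 over all of these genes. The first was ENSBTAG00000001338 (r = 0.88, rho = 0.90) and the next ENSBTAG00000027074 (r = 0.85, rho = 0.78), and no symbol was paired with any of the 5. In all, 20 genes had r of 0.70 or more and 0 had r of -0.70 or less. With each calf's mean removed the 5 had r from 0.77 to 0.84, over the 12 d 0 libraries alone from 0.53 to 0.93, and without the libraries at odds with their calf from 0.77 to 0.88. The first of them also ranked first within calves and on d 0. The best ranked gene with a symbol, ALOX5 at rank 7 with r = 0.75, was picked out after its value was seen. It encodes 5-lipoxygenase, the enzyme that starts leukotriene synthesis in granulocytes. GATA1 ranked 46 and was the 5th gene with a symbol among 340. CCL24 and CCL22 had too few reads to be ranked, and their correlation with IL5RA was r = 0.23 and 0.03 and with each other 0.13.

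**Figure D4:**
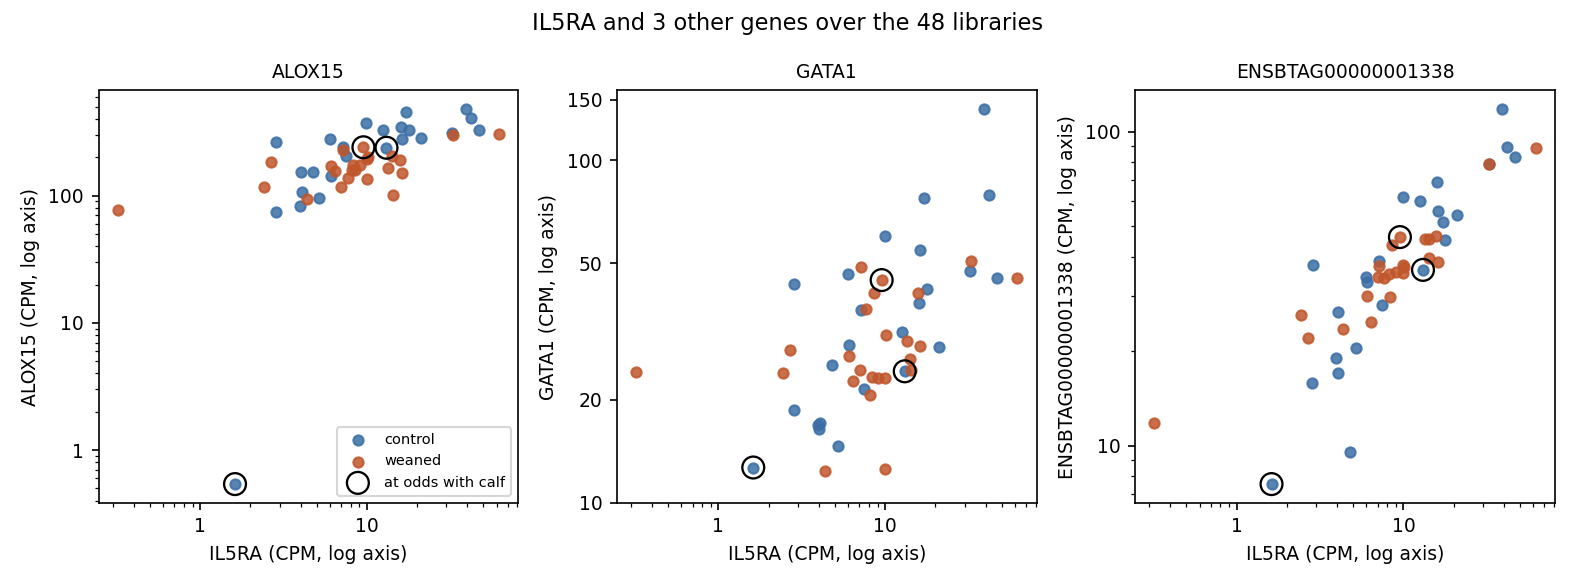
Level of ALOX15 (left), GATA1 (middle) and ENSBTAG00000001338 (right) against that of IL5RA in the 48 libraries, all in CPM on log axes, with control libraries in blue, weaned libraries in orange and rings on the 3 libraries at odds with their calf. The points run along a line most closely for ENSBTAG00000001338 (r = 0.88), and the ringed control library of calf 1755 on d 2 lies far below the rest for ALOX15 (0.540 CPM).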

How the data were processed

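Total leukocyte RNA of 12 calves on d 0, 1, 2 and 7 was sequenced as 36 bp single reads from oligo(dT)-selected libraries, 1 lane each. The authors used CASAVA 1.6 and FastQC 0.9.1, aligned reads to Btau4.0 with Bowtie 0.12.7 without mismatches, suppressed multi-mapping reads, kept 1 read per position and counted Ensembl genes with HTSeq 0.4.6p2. Keeping 1 read per position lowers high counts most. Whether strand was used is not given in the sources used here. The deposited values are raw counts per gene and library, and 0 columns were left out.

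Each comparison was fitted across all genes with at least 10 counts, using the edgeR 4.0.16 quasi-likelihood test (R 4.3.3) with TMM scaling and Benjamini-Hochberg adjustment. Between treatments and between days the fit held the libraries of that comparison without a block, and interactions had calf as a block. The same calf gave the 4 libraries of its number, so the libraries are paired by animal. CPM were scaled over the 48 libraries. Single genes were also tested by two-sided exact permutation on log2(CPM + 1), over all assignments of calves or all sign changes. Ratios of summed counts have 95% exact intervals, which cover counting error only because reads had no molecular identifiers. Scripts were tested on simulated data.

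Symbols came from 643 pairs of bovine and human identifiers in the study's supplements, which held 17 of 138 listed genes. In each list, up to 4 genes of highest mean CPM, genes called and genes with an unadjusted p under 0.01 could be named, with the 5 genes most like IL5RA. Members and lists were chosen with earlier results of these data known. Alternatives were DESeq2 1.42.0, edgeR exact tests, RLE size factors, other filters, 1 fit of 48 libraries, calf or flowcell as a block, another pseudocount and leaving out each calf. Leaving out the libraries at odds with their calf and exchanging the d 7 libraries of calves 1758 and 1770 were chosen after seeing the data.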

Additional observations from a re-analysis of the deposited data

Results flagged for a closer look

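In 24 sets of 6 libraries (3 genes in 8 groups), 6 had a highest value set apart from the rest by Dixon's criterion. Chance exceeds it in about 1 of 20 sets of normally distributed values. That rate does not carry over to untransformed CPM or to counts of a few reads, so 6 of 24 cannot be set against it. IL5RA was apart at 42.0 CPM in control calf 1763 on d 2, where the next calf had 16.2 CPM. It was apart in weaned calf 1758 on d 1 at 32.8 CPM and on d 2 at 62.2 CPM, with the next calves at 16.2 and 9.99 CPM. CCL24 was apart at 1.40 CPM (4 reads) in control calf 1763 on d 1 and at 0.918 CPM (3 reads) in weaned calf 1762 on d 7. CCL22 was apart at 1.30 CPM (4 reads) in control calf 1802 on d 1.

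For 3 results the difference between weaned and control calves in the change from d 0 had an unadjusted exact permutation p under 0.05, on log2(CPM + 1). In all, 8 of the 39 exact tests of the 3 genes did. The exact test was not run on other genes and the 39 tests share libraries, so this count cannot be set against a background. By edgeR, 22.3% of all genes tested had an unadjusted p under 0.05 in the d 1 interaction and 35.8% in the d 7 interaction. For IL5RA on d 1 the difference was 1.07 (exact p = 0.00649), for CCL24 on d 1 it was 0.62 (exact p = 0.0281) and for CCL22 on d 7 it was -1.14 (exact p = 0.00433). In the edgeR fit over all genes the adjusted p of these interactions was 0.200, 0.376 and 0.0810, none past the threshold.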

How the results depend on the processing

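Over 658 alternative values of the 39 fitted results, 615 kept direction and call, 37 changed direction and 6 became calls. The direction of 26 results held under every alternative run. Calls were gained under edgeR's exact test with a common dispersion, for IL5RA in weaned minus control d 0 (-1.19), weaned d 1 (1.08) and weaned d 2 (1.27) and for CCL22 in weaned minus control d 7 (-2.37) and control d 7 (2.02). Over all genes that test called from 0 to 865 in a comparison. With flowcell as a block the direction turned for the d 2 difference of IL5RA (-0.30) and CCL24 (0.32) and for CCL24 in control d 1 (-0.83). With calf as a replicate block it turned for CCL24 in control d 1 (-0.0347) and IL5RA in weaned d 7 (-0.0667, and -0.0635 with 2 libraries exchanged), and the pairing changed no call. Without the libraries at odds with their calf the CCL24 interaction on d 2 was 0.11, and on log2(CPM + 1) the CCL24 difference on d 0 was 0.0065 and the CCL22 change in weaned d 1 was -0.0725.

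Leaving out each calf in turn, the weaned minus control difference ran from -0.36 to 0.29 for CCL24 on d 0, from -0.23 to 0.62 for IL5RA on d 1, and on d 2 from -0.75 to 1.16 for IL5RA and from -0.69 to 0.11 for CCL24. In weaned calves it ran from -0.21 to 0.49 for CCL22 on d 1, on d 2 from -0.42 to 0.49 for CCL22 and from -0.34 to 0.75 for CCL24, and from -0.0873 to 0.43 for IL5RA on d 7. In control calves IL5RA ran from -1.11 to 0.67 on d 2 and from -1.16 to 0.58 on d 7, and CCL22 on d 7 from 1.57 to 3.28. The interaction ran from -0.89 to 0.31 for CCL24 on d 2 and from -0.39 to 0.92 for IL5RA on d 7. The causes were not tested. Genes called in control d 7 against d 0 numbered 516, but 11 with the flowcell block, 1 with all 48 libraries in 1 fit, 0 without the library at odds, 0 without calf 1755, 1759 or 1763, 790 without 1802 and 1086 without 1803. Low counts limit CCL24 and CCL22.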
